A study of Rattus norvegicus with 6 samples.

Results

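The genes described here are 10 core cardiac transcription factors: Gata4, Gata6, Nkx2-5, Tbx5, Tbx20, Mef2a, Mef2c, Mef2d, Hand1 and Hand2. They were chosen by symbol, and each symbol matched 1 gene, so 10 of the 34510 genes in the deposited table are members. The table came from neonatal rat ventricular cardiomyocytes (NRVMs), cultured heart muscle cells of newborn rats, in a study built around TRIM28 and ferroptosis. Messenger RNA was sequenced in 3 libraries titled Bgal and 3 titled Trim28. Cells of the study received an adenovirus that expresses TRIM28 (Ad-Trim28), and the labels do not say what the name Bgal stands for, which virus those cells received, or for how long and at what dose. The cell preparations are primary cultures that can hold other heart cells beside cardiomyocytes, and nothing in the labels says that libraries came from separate cultures. The p-values below therefore set group differences only against the spread between these libraries, which may be technical.

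Cardiac transcription factors bind short DNA motifs and switch on heart muscle genes together. GATA4 and GATA6 are zinc finger proteins, NKX2-5 is a homeodomain protein, TBX5 and TBX20 carry a T-box, the MEF2 proteins carry a MADS domain, and HAND1 and HAND2 are basic helix-loop-helix proteins of the left and right ventricle. GATA4, NKX2-5 and TBX5 bind one another and occupy shared enhancers, and these factors stay active in cardiomyocytes after the heart has formed. TRIM28, the protein that was overexpressed, is a corepressor that zinc finger proteins bring to chromatin.

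Reads assigned to genes ranged from 26146166 to 34593292 per library. Trim28 itself, given as a check of the labels, stood at 81.6, 87.8 and 77.6 FPKM in the Bgal libraries and at 2923, 2889.8 and 980.0 FPKM in Trim28 libraries 1, 2 and 3. FPKM is fragments per kilobase of gene, scaled to the size of the library. The third Trim28 library therefore carried less Trim28 transcript than the other two, and values for it are given separately below.

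All 10 factors passed the filter on low values (at least 0.5 FPKM in at least 3 libraries) and were detected in all 6 libraries. Nkx2-5, Tbx5, Mef2c and Tbx20 rose in the Trim28 libraries, Gata6 fell, and Gata4, Mef2a, Mef2d, Hand1 and Hand2 did not pass the test. The test was limma on log2(FPKM + 1) over 14808 genes, with a Benjamini-Hochberg adjusted p of 0.05 as threshold. Nkx2-5, Tbx5 and Mef2c rose 1.47-fold, 1.44-fold and 1.40-fold of the mean FPKM, Tbx20 rose 1.11-fold and Gata6 fell 1.21-fold. In all, 5 of the 10 genes passed, against 41.2% of all tested genes (20.1% higher and 21.1% lower). Among the 8808 tested genes with a mean level within the range of the 10 factors, 47.7% passed, so the share of factors called lay near its background. Without Bgal replicate 1, Trim28 replicate 1 or Trim28 replicate 2, 3 factors passed in place of 5. The median log2 change of the 10 factors was 0.00, beside -0.02 over all tested genes.

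**Figure D1:**
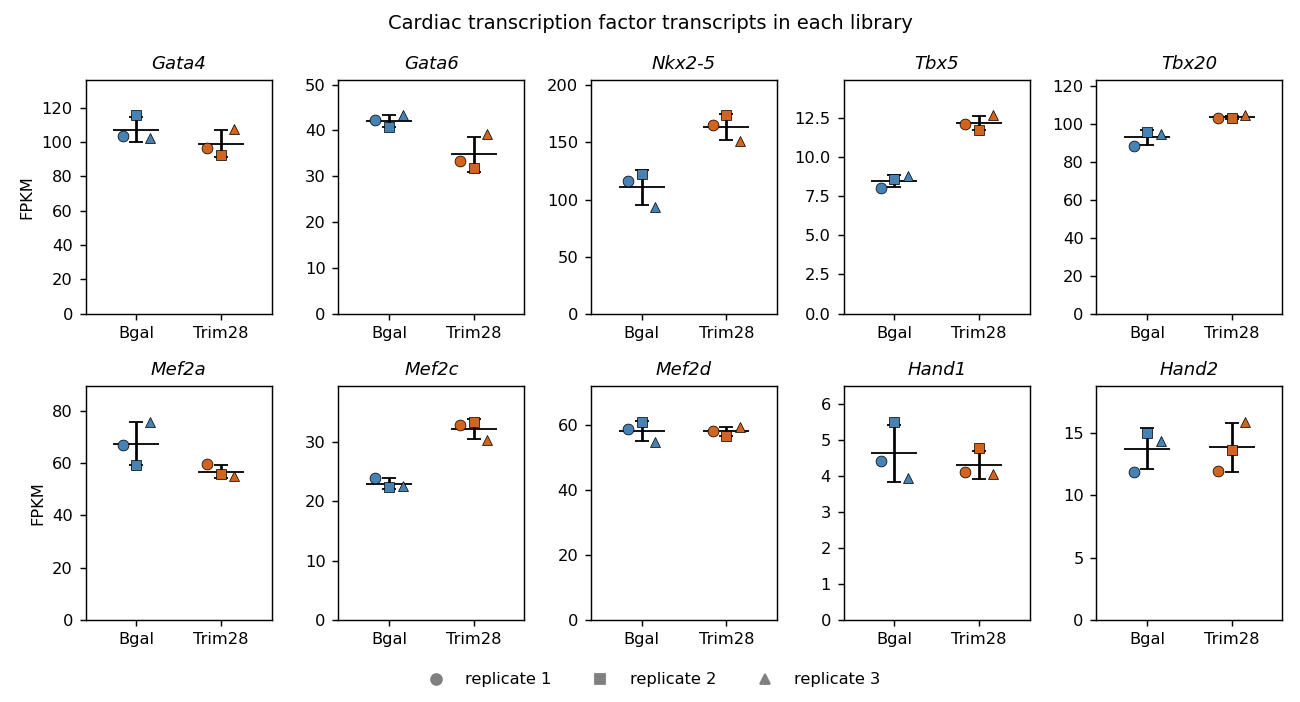
FPKM (vertical axes, each from 0) of the 10 cardiac transcription factors in the 3 Bgal and 3 Trim28 libraries; symbols mark the replicate number, the wide bar is the mean and the error bar the SD. The groups do not overlap for Gata6, Nkx2-5, Tbx5, Tbx20 and Mef2c, and they overlap for the other 5 genes.

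Nkx2-5 (ENSRNOG00000020747, chromosome 10, 16635989 to 16638764, plus strand), the homeodomain factor that marks the cardiac lineage, had 116, 123 and 93.6 FPKM in Bgal libraries 1 to 3 and 166, 174 and 151 FPKM in Trim28 libraries 1 to 3. The groups did not overlap, and the lowest value in each group was that of replicate 3. The mean rose from 111 ± 15.3 to 163 ± 11.4 FPKM (SD, n = 3 each), a log2 change of FPKM + 1 of 0.56 with an SE of 0.10 (95% confidence interval 0.32 to 0.80, limma adjusted p = 0.00441). This was the largest change among the 10 factors. Gene positions are those of the deposited table, for which the sources used here give no genome build.

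Tbx5 (ENSRNOG00000001399, chromosome 12, 42097626 to 42148146, plus strand), a T-box activator needed for the chambers and the conduction system, had 8.00, 8.59 and 8.78 FPKM in the Bgal libraries and 12.1, 11.7 and 12.6 FPKM in the Trim28 libraries. The 3 libraries of each group lay close together and far from the other group. Its log2 change of FPKM + 1 was 0.48 with an SE of 0.06 (95% confidence interval 0.33 to 0.63, limma adjusted p = 0.00118), on 874 to 1271 reads per library.

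Tbx20 (ENSRNOG00000016181, chromosome 8, 25850962 to 25904570, minus strand), the T-box factor that acts both as activator and repressor in the heart, had 88.4, 95.4 and 94.7 FPKM in the Bgal libraries and 103, 103 and 104 FPKM in the Trim28 libraries. The groups were apart, but by a small distance. The log2 change of FPKM + 1 was 0.15 with an SE of 0.04 (95% confidence interval 0.05 to 0.26, limma adjusted p = 0.0248). The call was lost without Bgal replicate 1 (limma adjusted p = 0.0731) and without Trim28 replicate 1 (0.0729), 2 (0.0653) or 3 (0.0616).

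Among the MADS factors, Mef2c (ENSRNOG00000033134, chromosome 2, 11658568 to 11822787, plus strand), which drives myocyte differentiation genes, had 24.0, 22.3 and 22.6 FPKM in the Bgal libraries and 32.9, 33.5 and 30.3 FPKM in the Trim28 libraries. Every Trim28 library lay above every Bgal library, and replicate 3 was the lowest of the Trim28 libraries. The log2 change of FPKM + 1 was 0.47 with an SE of 0.06 (95% confidence interval 0.34 to 0.60), with the smallest limma adjusted p of the 10 factors, 0.000766. Mef2a (ENSRNOG00000047756, chromosome 1, 128209971 to 128341263, minus strand), the MEF2 gene known for its part in mitochondrial and stress gene expression, had 67.1, 59.4 and 76.0 FPKM in the Bgal libraries and 59.6, 55.9 and 55.0 FPKM in the Trim28 libraries. Bgal replicate 2 lay within the range of the Trim28 libraries. The log2 difference of -0.24 had a 95% confidence interval of -0.44 to -0.04 and did not pass (limma adjusted p = 0.0614). It passed without Bgal replicate 2 (limma adjusted p = 0.0133) and in limma-voom on the reads recovered from FPKM (adjusted p = 0.0376). Mef2d (ENSRNOG00000031778, chromosome 2, 187512164 to 187538026, plus strand), a MEF2 member that takes part in stress remodelling, had 58.8, 61.1 and 54.8 FPKM in the Bgal libraries and 58.1, 56.5 and 59.5 FPKM in the Trim28 libraries. The groups overlapped fully, with a 95% confidence interval of the log2 difference from -0.12 to 0.12 (limma adjusted p = 0.966).

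Gata6 (ENSRNOG00000023433, chromosome 18, 2416552 to 2446338, plus strand), a zinc finger activator of heart and outflow tract genes, had 42.3, 40.7 and 43.3 FPKM in the Bgal libraries and 33.3, 31.9 and 39.1 FPKM in the Trim28 libraries. Trim28 replicate 3 lay nearer to the Bgal libraries than to the other Trim28 libraries. The log2 change of FPKM + 1 was -0.27 with an SE of 0.08 (95% confidence interval -0.45 to -0.09, limma adjusted p = 0.0255). Without Trim28 replicate 3 the change was larger, at -0.36 (limma adjusted p = 0.00341), whereas the call was lost without Bgal replicate 1 (0.07) or 3 (0.0731), without Trim28 replicate 1 (0.0809) or 2 (0.0775), and with no filter on low values (0.0518).

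Its relative Gata4 (ENSRNOG00000010708, chromosome 15, 46386712 to 46432965, minus strand), which activates natriuretic peptide and contractile genes, had 104, 116 and 103 FPKM in the Bgal libraries and 96.8, 92.8 and 108 FPKM in the Trim28 libraries. The groups overlapped through Trim28 replicate 3. The log2 difference of FPKM + 1 was -0.11 with a 95% confidence interval of -0.28 to 0.05 (limma adjusted p = 0.24). That interval includes a fall as large as that of Gata6.

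The HAND genes had the largest standard errors of the 10 factors, at 0.12 each on the log2 scale. Hand2 (ENSRNOG00000060448, chromosome 16, 36371489 to 36373546, minus strand), known for the right ventricle, had 11.9, 15.0 and 14.4 FPKM in the Bgal libraries and 12.0, 13.7 and 15.9 FPKM in the Trim28 libraries. Hand1 (ENSRNOG00000002582, chromosome 10, 43250745 to 43253296, minus strand), known for the left ventricle, had 4.42, 5.51 and 3.94 FPKM in the Bgal libraries and 4.10, 4.76 and 4.05 FPKM in the Trim28 libraries. Both ranges overlapped. Their limma adjusted p-values were 0.966 for Hand2 and 0.645 for Hand1, with 95% confidence intervals of the log2 difference from -0.27 to 0.28 and from -0.36 to 0.20. Both intervals include changes in either direction. Hand1 rested on 121 to 169 reads per library and Hand2 on 216 to 319, and the part of depth in their spread was not tested.

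**Figure D2:**
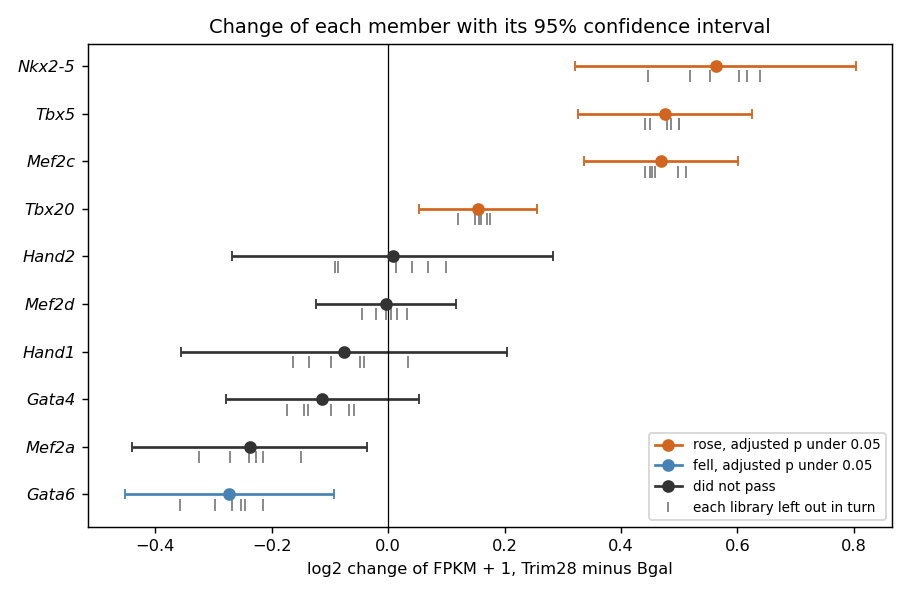
Log2 change of FPKM + 1 (Trim28 minus Bgal, horizontal axis) of the 10 factors with 95% confidence intervals from limma; grey ticks are the values with each of the 6 libraries left out in turn. Nkx2-5, Tbx5 and Mef2c lie between 0.47 and 0.56, with no tick below 0.44, while Hand1, Hand2 and Mef2d have ticks on both sides of 0.

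Nkx2-5, Tbx5 and Mef2c passed under each alternative that was run, including each library left out. Trim28 replicate 3 was the Trim28 library nearest to the Bgal mean for 4 of the 10 factors (Gata4, Gata6, Nkx2-5 and Mef2c), or 40.0%, beside 40.0% of all tested genes. The 5 ranges that did not overlap between the groups compare with 53.8% of all tested genes.

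The order of the levels per length was similar in both groups. In the Bgal libraries Nkx2-5 and Gata4 (107 ± 7.26 FPKM) led with overlapping ranges, followed by Tbx20 (92.8 ± 3.87 FPKM), then by Mef2a (67.5 ± 8.29 FPKM) and Mef2d (58.2 ± 3.19 FPKM), whose ranges overlapped, and by Gata6 (42.1 ± 1.32 FPKM), Mef2c (23.0 ± 0.880 FPKM), Hand2, Tbx5 and Hand1, each apart from the next. In the Trim28 libraries Nkx2-5 stood alone at the top, and 4 neighbouring pairs overlapped: Tbx20 with Gata4, Mef2d with Mef2a, Gata6 with Mef2c, and Hand2 with Tbx5. Among the 944 tested genes that the deposited table assigns to a transcription factor family, Nkx2-5 ranked 4, Gata4 10 and Tbx20 11 by mean FPKM over the 6 libraries, and Hand1 ranked 561. These levels rest on the gene lengths of the table, which range from 645 bases for Hand2 to 6451 bases for Mef2c.

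Ratios of related factors within a library do not depend on the library's total. Mef2a exceeded Mef2c 2.80-fold, 2.66-fold and 3.36-fold in Bgal replicates 1 to 3, and 1.81-fold, 1.67-fold and 1.82-fold in the Trim28 libraries. Mef2d exceeded Mef2c by a ratio of 2.53 ± 0.173 and 1.81 ± 0.143 (SD, n = 3 each). The ratio of Tbx20 to Tbx5 was 11.0 ± 0.169 and 8.52 ± 0.262. These 3 ratios were lower in every Trim28 library than in every Bgal library, at an exact two-sided permutation p of 0.1 each, the smallest that 3 against 3 allows, and 0.167 after Benjamini-Hochberg adjustment over the 5 ratios computed. The groups overlapped for Gata6 to Gata4 (0.394 ± 0.0372 and 0.350 ± 0.0109, exact permutation p = 0.2, adjusted 0.25, n = 3 each) and for Hand1 to Hand2 (0.337 ± 0.0552 and 0.315 ± 0.0526, exact permutation p = 0.5, adjusted 0.5, n = 3 each).

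The summed level of the 3 MEF2 genes was 149 ± 5.36 FPKM with Bgal and 147 ± 3.08 FPKM with Trim28, with overlapping ranges. Within that sum, Mef2c took 16.0%, 15.6% and 14.8% in Bgal replicates 1 to 3 and 21.9%, 22.9% and 20.9% in Trim28 replicates 1 to 3. The share of Mef2a was 45.3% ± 3.99 and 38.6% ± 0.839, and that of Mef2d 39.2% ± 3.52 and 39.5% ± 1.42 (SD, n = 3 each). Mef2c had the smallest share of the 3 in all 6 libraries, and its shares did not overlap between the groups.

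**Figure D3:**
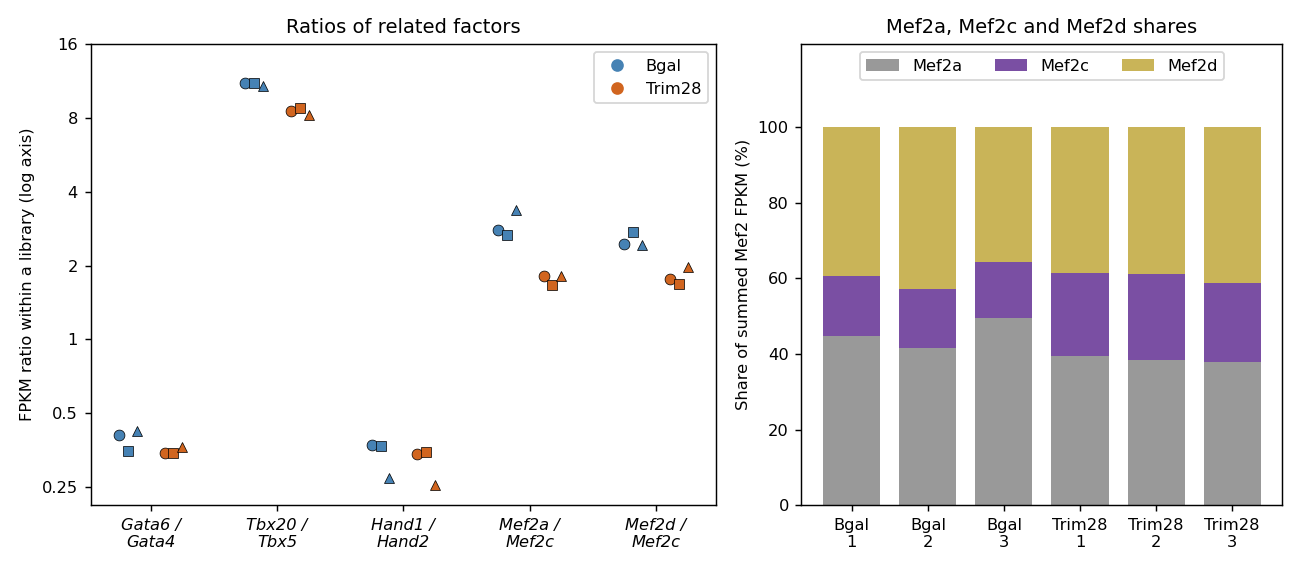
Left, FPKM ratios of related factors within each library (log axis; blue Bgal, orange Trim28, symbols for replicates 1 to 3 as circle, square and triangle); right, shares of Mef2a, Mef2c and Mef2d in their summed FPKM, in percent, per library. The ratios to Mef2c and the ratio of Tbx20 to Tbx5 do not overlap between the groups, and the Mef2c share is 14.8% to 16.0% in the Bgal and 20.9% to 22.9% in the Trim28 libraries.

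RefSeq promoters (assembly GRCr8, 250 bases before to 50 after the gene start) were found for 8 of the 10 factors and searched on both strands for the motifs these proteins bind. The motifs were AGATAA or AGATAG and also TGATAA or TGATAG for GATA factors, TNAAGTG for NKX2 factors, AGGTGTGA for T-box factors, the MEF2 motif, and CANNTG (E-box) for helix-loop-helix factors. The promoters of the 3 factors that rose and have a RefSeq entry, of Gata6, which fell, and of Mef2a, the only one of the 8 with a match to the MEF2 motif, are printed 5′ to 3′ on the gene's strand, with matches to the GATA and MEF2 motifs in capitals. RefSeq places Tbx5 on the minus strand of GRCr8, whereas the deposited table has it on the plus strand of its own build.
Nkx2-5, chr10:16848350-16848649, plus strand: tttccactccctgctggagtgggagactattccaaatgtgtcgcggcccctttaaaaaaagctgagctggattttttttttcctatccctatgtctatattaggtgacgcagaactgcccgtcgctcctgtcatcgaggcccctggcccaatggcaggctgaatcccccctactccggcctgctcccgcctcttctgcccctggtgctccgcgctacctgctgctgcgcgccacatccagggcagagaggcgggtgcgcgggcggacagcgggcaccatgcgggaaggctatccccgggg
Tbx5, chr12:42395310-42395609, minus strand: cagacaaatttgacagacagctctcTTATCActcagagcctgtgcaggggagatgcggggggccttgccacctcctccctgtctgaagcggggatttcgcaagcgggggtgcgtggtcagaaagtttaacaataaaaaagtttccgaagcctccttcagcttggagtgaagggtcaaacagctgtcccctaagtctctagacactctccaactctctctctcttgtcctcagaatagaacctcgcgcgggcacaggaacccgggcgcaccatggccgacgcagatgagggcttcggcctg
Tbx20, chr8:31533960-31534259, minus strand: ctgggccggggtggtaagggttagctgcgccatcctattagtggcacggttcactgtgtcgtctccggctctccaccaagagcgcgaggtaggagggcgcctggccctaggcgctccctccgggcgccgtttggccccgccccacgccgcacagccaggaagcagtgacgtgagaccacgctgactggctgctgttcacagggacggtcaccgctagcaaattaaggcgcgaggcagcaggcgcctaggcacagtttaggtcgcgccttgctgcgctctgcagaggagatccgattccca
Gata6, chr18:2460659-2460958, plus strand: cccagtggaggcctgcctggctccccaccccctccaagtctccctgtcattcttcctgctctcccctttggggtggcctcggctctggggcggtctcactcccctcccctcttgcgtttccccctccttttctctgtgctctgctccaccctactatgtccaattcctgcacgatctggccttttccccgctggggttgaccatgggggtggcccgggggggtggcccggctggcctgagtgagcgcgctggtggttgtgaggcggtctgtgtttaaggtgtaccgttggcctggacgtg
Mef2a, chr1:130392113-130392412, minus strand: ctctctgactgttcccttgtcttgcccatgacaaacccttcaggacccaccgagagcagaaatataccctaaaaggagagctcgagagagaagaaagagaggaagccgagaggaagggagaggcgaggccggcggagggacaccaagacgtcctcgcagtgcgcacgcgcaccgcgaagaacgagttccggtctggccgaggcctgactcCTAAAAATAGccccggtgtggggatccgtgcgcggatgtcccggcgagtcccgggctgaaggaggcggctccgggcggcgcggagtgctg

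The Mef2a window held CTAAAAATAG, which begins 40 bases before the start, and 3.29% of 33469 promoters of that length hold a match to the MEF2 motif. A GATA motif was found for Mef2d, Tbx5 and Hand2, 3 of 8, beside 30.3% of all promoters. In the Tbx5 window it reads TTATCA, the reverse complement of TGATAA. Near its 3′ end the Tbx5 window holds ATGGCC, and the codons from this ATG to the window's end include no stop codon. Whether the RefSeq start of Tbx5 is a start of transcription was not tested. The GATA and E-box counts include this window. An E-box was found for Nkx2-5, Tbx5 and Hand2, beside 72.1% of all promoters, and neither the NKX2 motif (11.5% of all) nor the T-box motif (1.10% of all) was found in the 8 windows. GC content was 61.3% for Nkx2-5, 56.0% for Tbx5, 65.3% for Tbx20, 64.7% for Gata6 and 63.0% for Mef2a, above the median of 51.7% over all promoters. A match is a description of the letters, and no binding was measured.

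Genes listed as markers of other cell types moved in the same libraries. The counts below stand beside 20.1% of all tested genes that rose and 21.1% that fell. Of 12 tested fibroblast markers 10 rose and 0 fell, and their summed level went from 572 to 594 FPKM in the Bgal libraries to 1047 to 1119 FPKM in the Trim28 libraries, with Col1a1, a collagen chain, at 192 ± 14.4 and 388 ± 7.55 FPKM and Mmp2, a matrix protease, at 113 ± 1.94 and 236 ± 3.12 FPKM. Of 9 mural markers 8 rose and 0 fell (summed 762 to 1019 and 1624 to 1722 FPKM). Most of that sum was Acta2, at 692 ± 111 and 1342 ± 52.1 FPKM, and Tagln, at 157 ± 24.4 and 218 ± 8.88 FPKM. Which cells these transcripts came from was not tested. All 7 tested leukocyte markers rose (summed 30.7 to 31.9 and 70.8 to 73.2 FPKM), with Lyz2, lysozyme, up 2.55-fold and Cd68 up 1.96-fold. Of 7 endothelial markers in the table, only 3 were tested (Flt1 and Tek rose and Kdr fell), and the defining marker Vwf was near 0, at 0.0822 ± 0.0087 and 0.120 ± 0.0240 FPKM. Of 9 cardiomyocyte markers 2 rose and 4 fell, with a summed level of 20082 to 22812 and 23144 to 23739.9 FPKM. Of these, Actc1, cardiac actin, rose and Tnnt2, cardiac troponin T, fell, at 5714 ± 859 and 9018 ± 164 FPKM and at 4471 ± 138 and 3759 ± 52.1 FPKM. Actc1 gained more in its mean than the whole sum did. The other cardiomyocyte markers together therefore had a lower mean level in the Trim28 libraries.

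Heart fibroblasts and mural cells also transcribe several of the 10 factors, Gata4, Gata6, Tbx20, Hand2 and Mef2c among them. In bulk RNA, a change in the number of such cells and a change in RNA per cell cannot be told apart. The part of these markers in the results for the 10 factors was not tested.

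The cofactors and regulators of these proteins changed in both directions. Of 24 listed genes 21 were found and tested, of which 8 rose and 4 fell, with a median log2 change of 0.18. Those called were 57.1% of the 21, beside 41.2% of all tested genes. Hdac5, a class II histone deacetylase that binds and represses MEF2 proteins, rose from 33.7 ± 1.20 to 48.4 ± 0.311 FPKM (limma adjusted p = 0.000204). Nfatc4, a calcineurin-driven partner of GATA4, rose from 1.37 ± 0.157 to 2.81 ± 0.255 FPKM. Myocd, the muscle coactivator of SRF, and Srf rose 1.21-fold and 1.14-fold (limma adjusted p = 0.00492 and 0.0171), Srf losing its call without Trim28 replicate 1 (0.0594). Smyd1, a muscle methyltransferase downstream of MEF2C, fell from 118 ± 6.37 to 89.5 ± 1.89 FPKM, and Tead1, a partner of YAP at muscle enhancers, from 73.8 ± 2.82 to 56.0 ± 3.50 FPKM. Zfpm2, which encodes the GATA4 cofactor FOG2, stood at 6.72 ± 0.940 and 7.75 ± 0.246 FPKM, a difference that did not pass (limma adjusted p = 0.166, 95% confidence interval of the log2 difference -0.04 to 0.41).

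Among 28 relatives and other heart development factors, 17 passed the filter, 5 rose and 6 fell, with a median log2 change of 0.07 over those 17. Those called were 64.7% of the 17, beside 41.2% of all tested genes. Tcf21, a factor of the epicardium and of fibroblasts that also stands in the fibroblast marker list, rose from 11.0 ± 0.638 to 18.2 ± 0.618 FPKM. Twist1, a mesenchymal helix-loop-helix factor, rose from 3.09 ± 0.417 to 6.46 ± 0.726 FPKM, and Tbx2, a T-box repressor of chamber genes, from 0.924 ± 0.119 to 2.36 ± 0.185 FPKM. Meis2, a homeodomain partner of HOX and PBX proteins, fell from 28.8 ± 1.29 to 21.6 ± 0.557 FPKM. Chosen here after their values were seen, Gata5, another GATA gene of the heart, fell 1.24-fold, and the listed Iroquois homeobox genes Irx3 and Irx4 fell 1.73-fold and 1.43-fold, and Irx5 fell from 7.31 ± 0.440 to 4.86 ± 0.370 FPKM. Their limma adjusted p-values were 0.00227 for Gata5 and 0.00376, 0.0182 and 0.00267 for the Iroquois genes.

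By the family column of the deposited table, 4 of 8 tested T-box genes rose and 0 fell. Over all tested genes, 20.1% rose and 21.1% fell. The 4 T-box genes were Tbx5, Tbx20, Tbx2 and Tbx18. Tbx5 and Tbx20 are members, and among the 6 other tested T-box genes 2 rose and 0 fell. Of 10 tested GATA-type zinc finger genes 1 rose and 2 fell, Gata6 and Gata5 being the latter. Of 4 tested MADS genes Mef2c and Srf rose and 0 fell, and all of the 4 but Srf are members.

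Textbook target genes of the 10 factors split evenly. Of 28 listed 27 were tested, 10 rose and 10 fell, with a median log2 change of -0.07, and 6 of them (Actc1, Tnnt2, Myh6, Tnnc1, Ryr2 and Pln) also stand in the cardiomyocyte marker list. The share called was 74.1% of the 27 tested targets, beside 41.2% of all tested genes. Many targets were far more abundant than the 10 factors. No share was computed for genes at the levels of the targets, cofactors or relatives, so these gaps are not read as particular to the lists. Among those with the smallest p-values, Ckm, muscle creatine kinase, fell from 279 ± 5.90 to 152 ± 10.5 FPKM, and Myl7 and Myl2, the atrial and ventricular regulatory light chains, fell as well. Myl7 fell 2.29-fold and Myl2 2.78-fold, with limma adjusted p-values of 0.000129 and 0.000261. Chosen after their values were seen, Nppa, the atrial natriuretic peptide and a common target of GATA4, NKX2-5 and TBX5, rose from 4335 ± 496 to 6368 ± 687 FPKM (limma adjusted p = 0.00711), while Gja5, a gap junction gene activated by TBX5 and NKX2-5, fell from 8.99 ± 2.26 to 5.55 ± 1.53 FPKM (limma adjusted p = 0.0451). The ranges of Gja5 overlapped, with Trim28 replicate 3 at 7.31 FPKM above Bgal replicate 3 at 7.07 FPKM. Genes attributed to the same factors thus lay on both sides of 0.

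**Figure D4:**
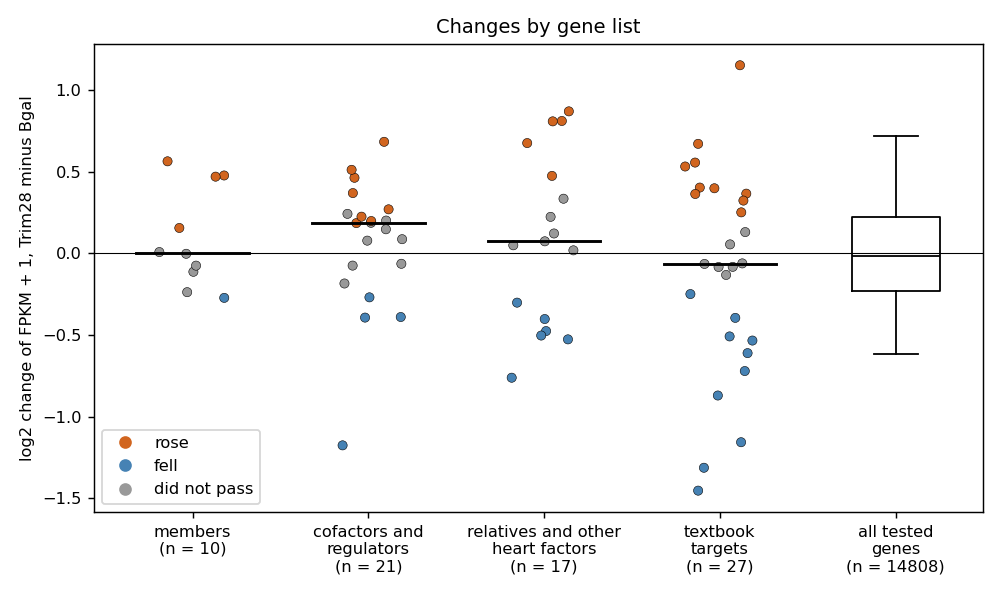
Log2 change of FPKM + 1 (vertical axis, Trim28 minus Bgal) of each tested gene of 4 lists (points, with the list's median as a bar) beside all 14808 tested genes (box from the lower to the upper quartile, whiskers from the 5th to the 95th percentile). The 10 factors lie between -0.27 and 0.56, while targets spread from -1.45 to 1.15.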

How the data were processed

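Poly(A) RNA of 3 Bgal and 3 Trim28 libraries was sequenced in pairs. The values are FPKM per the file headers, deposited by the authors in 1 column per library without pooling. HISAT2 2.0.5 and DESeq2 are named in the submitters' processing notes, and the sources used here do not give the counter, its strand setting or the genome build. No other sample columns (0) were present. FPKM times gene length gave whole reads for 100% of values above 0 (tolerance 0.01).

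Genes that reached 0.5 FPKM in 3 or more libraries were compared as log2(FPKM + 1) in limma 3.58.1 (R 4.3.3), with an intensity trend and Benjamini-Hochberg adjustment over 14808 genes. Log2 changes with the pseudocount understate changes of low genes, and folds are ratios of mean FPKM. Libraries of a group differed beyond sampling noise (chi-square per degree of freedom 6.78 to 18.1). On reads simulated for these 14808 genes, 9 of 50 genes changed 1.25-fold, 39 of 50 changed 1.5-fold and 50 of 50 changed 2-fold were recovered, with 12 of 14608 unchanged genes called. The simulation changed no genes with low counts and gave every gene the same relative spread between libraries beyond sampling noise. In the data themselves 6097 genes passed, so the recovered shares do not measure the power of the test on these libraries.

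The 10 members and all lists were chosen with earlier results of these data known. Besides the members, Trim28, Zfpm2, Srf and Myocd, up to 4 genes with the smallest p of the cofactor, relative and target lists and the 2 most abundant genes of each marker list are named, except for 1 gene that is not reported here. Alternatives were another pseudocount, no filter, a filter of 2 FPKM, median-of-ratios scaling, a replicate block, limma-voom on recovered reads, and each library left out.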

Additional observations from a re-analysis of the deposited data

How the results depend on the processing

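Under the 6 alternatives that kept all libraries, 4 to 6 of the 10 factors passed, and the count was 3 to 6 with 1 library left out. Leaving out Bgal replicate 1, Trim28 replicate 1 or Trim28 replicate 2 gave 3 calls, those of Nkx2-5, Tbx5 and Mef2c, and fewer samples entered those fits. The log2 change of Gata6 ranged from -0.36 to -0.21 over the libraries left out and was -0.27 with no filter, where it no longer passed. Tbx20 ranged from 0.12 to 0.17. Mef2a, which did not pass in the test as designed, ranged from -0.32 to -0.15 and passed at -0.23 in limma-voom on the recovered reads. Values near 0 changed sign: Mef2d was 0.012 with median-of-ratios scaling and 0.014 in limma-voom, and ranged from -0.046 to 0.032 over the libraries left out, Hand1 from -0.16 to 0.035, Hand2 from -0.091 to 0.10 and the log2 ratio of Hand1 to Hand2 from -0.24 to 0.048. The log2 difference in the ratio of Tbx20 to Tbx5, -0.37, was -0.32 with FPKM + 1. Where no construction of the alternative shows it, the cause was not tested. The labels link same-numbered libraries by nothing but the number and do not say whether they were paired. Correlations of their deviations from the group means were -0.016, 0.134 and 0.009, and not every library correlated best with its own number. With the replicate number as a block, 5 of the 10 factors and 5666 of all genes passed, against 5 and 6097 without it. Median-of-ratios scaling moved the calls over all genes from 2971 higher and 3126 lower to 3107 and 2973. Hand1 had the fewest reads of the 10 factors, at 121 to 169 per library.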

Other observations

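No gene of the deposited table overlapped any of the 10 factors by its coordinates, and 9 lay within 10 kilobases of one. The genes that follow were chosen after their values were seen, as the neighbours that passed. All other neighbours did not pass or were not tested, and 41.2% of all tested genes passed. On the opposite strand, 1047 bases beyond the 5′ end of Hand2, lay the long non-coding RNA AABR07025387.1 (chromosome 16, 36374593 to 36388331, plus strand). It fell from 42.6 ± 4.29 to 24.6 ± 1.56 FPKM (SD, n = 3 each), a log2 change of -0.76 (limma adjusted p = 0.000483), while Hand2 stood at 13.8 ± 1.64 and 13.9 ± 1.98 FPKM. Neil2, a DNA repair glycosylase gene 4745 bases beyond the 3′ end of Gata4 and on its strand, rose from 2.31 ± 0.278 to 7.43 ± 2.22 FPKM (limma adjusted p = 0.00163). An unnamed transcript model 2322 bases beyond the 5′ end of Tbx5, on the opposite strand, fell from 1.36 ± 0.143 to 0.623 ± 0.138 FPKM (limma adjusted p = 0.00896), while Tbx5 rose. The sources used here do not give the strand setting of the counting, and whether reads of these neighbours and of the factors were mixed was not tested.

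The summed FPKM of the 10 factors was 525, 546 and 515 in Bgal replicates 1 to 3 and 578, 577 and 579.7 in Trim28 replicates 1 to 3. The mean of the sum went from 529 to 578 FPKM, and that of Nkx2-5 alone from 111 to 163 FPKM. Nkx2-5 thus gained more than the sum, and the other factors together did not rise. Hopx, a homeodomain protein of the cofactor list that binds SRF and was chosen after its values were seen, fell from 13.5 ± 3.50 to 5.37 ± 1.06 FPKM (limma adjusted p = 0.00235).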
